A study of Mus musculus with 2 samples.

Results

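The Krüppel-like factors (KLFs) other than Klf2 are described here by the accessible chromatin at 7 of their genes, Klf3, Klf4, Klf6, Klf7, Klf10, Klf12 and Klf13, in inflammation-experienced regulatory T (Treg) cells of the mouse. The genes were chosen by name, out of 21853 protein-coding genes with a protein-coding transcript. A locus was given every accessible region that overlapped the gene body or the 5 kb on either side of it, together with every region whose nearest protein-coding transcript start, within 100 kb, belonged to the gene. This rule gave 51 of the 29415 regions to the 7 loci, and they covered 33.1 kb.

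KLFs are transcription factors that carry a set of zinc fingers near the carboxyl end and bind GC boxes and CACCC boxes in promoters and enhancers. The fingers are alike across the family, as they are in the Sp factors. The parts outside the fingers differ, and they recruit different partners: Klf3 and Klf12 bind the CtBP corepressors, Klf10 and Klf13 bind the Sin3 corepressor, and Klf4, Klf6 and Klf7 carry activating domains. In T cells the family is best known for restraining growth and for setting where the cells travel, mainly through Klf2. Klf10 is induced by TGF-beta and has been tied to Treg function, and Klf13 was described as a regulator of the chemokine gene Ccl5 in activated T cells.

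Assay for transposase-accessible chromatin with sequencing (ATAC-seq) marks DNA that the Tn5 transposase can reach. The cells came from 1 male mouse aged 6 months with the alleles Foxp3CreERT2, an inducible Cre recombinase expressed where the Treg regulator Foxp3 is, and Rosa26YFP, a fluorescent Cre reporter. Both samples were technical replicates of that 1 biological replicate, and both carried these alleles. Neither the inflammation nor the isolation of the cells is specified in the labels, and cells that had not met inflammation were not analysed here.

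The deposited lists of peaks were shared by both samples and taken to pool them, so no spread between libraries or mice could be measured and no test was possible. The main list held peaks that passed a threshold on the irreproducible discovery rate (IDR), a measure of how well peaks rank alike in a pair of read sets. Fold enrichment (the height of a peak over the background of the authors' peak caller, without unit) and −log10 p are the authors' own values for each peak, and they describe peaks within a list only. The sequencing depth is unknown. As a check on the labelled cell type, 8 of 9 Treg and T cell markers had a promoter region and Cd4, with 1 region at its locus, did not. The region counted for Foxp3 has its nearest start in the neighbouring gene Ppp1r3f. A promoter region was also found at 1 of 4 B cell markers (Pax5), 0 of 4 myeloid markers, 1 of 4 CD8 T and NK cell markers (Cd8b1) and 2 of 3 erythroid markers (Klf1 and Epor). Over all protein-coding genes the share with a promoter region was 49.7%. The part of other cells in the regions of the KLF loci was not tested.

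The sequences under the highest region outside the promoter of each gene are shown because at every locus but Klf7 this region, not the promoter, had the greatest fold enrichment. Each is 201 bases of GRCm38 (mm10) centred on the summit, read 5′ to 3′ on the strand of the gene, with matches to any of 15 consensus motifs in capitals. Positions count from 1.
Klf3 intron, chr5:64819515-64819715, plus strand: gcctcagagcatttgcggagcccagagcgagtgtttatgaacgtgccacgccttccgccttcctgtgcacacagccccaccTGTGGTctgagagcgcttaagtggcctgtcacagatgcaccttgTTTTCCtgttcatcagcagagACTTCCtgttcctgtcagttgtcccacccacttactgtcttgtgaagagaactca
Klf12 intron, chr14:99943281-99943481, minus strand: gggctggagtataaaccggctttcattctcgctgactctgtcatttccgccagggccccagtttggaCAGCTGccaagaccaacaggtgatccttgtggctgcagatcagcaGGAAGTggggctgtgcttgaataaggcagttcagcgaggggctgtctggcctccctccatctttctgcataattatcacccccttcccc
Klf10 upstream, chr15:38384780-38384980, minus strand: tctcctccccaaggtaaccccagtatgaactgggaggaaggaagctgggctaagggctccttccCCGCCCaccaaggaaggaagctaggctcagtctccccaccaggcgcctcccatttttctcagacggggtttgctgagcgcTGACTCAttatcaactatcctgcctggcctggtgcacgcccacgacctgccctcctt
Klf13 upstream, chr7:63974500-63974700, minus strand: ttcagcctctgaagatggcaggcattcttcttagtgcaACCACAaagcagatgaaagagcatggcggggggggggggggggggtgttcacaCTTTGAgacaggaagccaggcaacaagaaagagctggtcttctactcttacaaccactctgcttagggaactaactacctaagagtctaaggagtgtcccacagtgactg
Klf4 downstream, chr4:55489372-55489572, minus strand: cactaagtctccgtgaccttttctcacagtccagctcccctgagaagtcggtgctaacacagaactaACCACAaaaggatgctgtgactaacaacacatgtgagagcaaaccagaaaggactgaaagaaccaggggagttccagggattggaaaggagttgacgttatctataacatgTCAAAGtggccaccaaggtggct
Klf6 upstream, chr13:5779493-5779693, plus strand: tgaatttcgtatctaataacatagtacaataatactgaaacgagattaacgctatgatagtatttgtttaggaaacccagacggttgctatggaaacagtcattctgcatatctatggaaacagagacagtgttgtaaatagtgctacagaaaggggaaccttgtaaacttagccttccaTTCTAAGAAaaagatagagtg
Klf7 intron, chr1:64104720-64104920, minus strand: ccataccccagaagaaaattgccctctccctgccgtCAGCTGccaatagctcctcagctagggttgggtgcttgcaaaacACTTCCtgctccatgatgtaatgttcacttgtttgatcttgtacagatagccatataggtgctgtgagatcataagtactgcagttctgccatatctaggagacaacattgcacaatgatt
In these 7 windows the capitals mark an ETS word (ACTTCC or GGAAGT) at Klf3, Klf12 and Klf7, a RUNX word (TGTGGT or ACCACA) at Klf3, Klf13 and Klf4, and a TCF/LEF word (CTTTGA or TCAAAG) at Klf13 and Klf4. The GC box, the family's own motif, was matched in the Klf10 window only (CCGCCC), beside an AP-1 word (TGACTCA). The remaining capitals are an NFAT word (TTTTCC) at Klf3, an E-box (CAGCTG) at Klf12 and Klf7, and a STAT word (TTCTAAGAA) at Klf6.

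Promoter windows of the same length are shown for 4 members, namely Klf3 and Klf7, with the lowest and the highest promoter fold, Klf13, whose highest promoter region was near a start inside the gene, and Klf4, whose promoter held an AP-1 word.
Klf3 promoter, chr5:64803062-64803262, plus strand: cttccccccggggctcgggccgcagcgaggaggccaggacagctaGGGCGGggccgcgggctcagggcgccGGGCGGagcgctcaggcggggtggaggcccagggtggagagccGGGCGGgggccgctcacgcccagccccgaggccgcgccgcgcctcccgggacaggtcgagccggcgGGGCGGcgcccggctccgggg
Klf13 promoter of a shorter transcript, chr7:63925479-63925679, minus strand: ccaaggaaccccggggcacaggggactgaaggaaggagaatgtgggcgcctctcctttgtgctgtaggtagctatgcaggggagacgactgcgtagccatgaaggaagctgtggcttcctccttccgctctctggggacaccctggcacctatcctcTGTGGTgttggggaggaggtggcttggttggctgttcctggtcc
Klf4 promoter, chr4:55532882-55533082, minus strand: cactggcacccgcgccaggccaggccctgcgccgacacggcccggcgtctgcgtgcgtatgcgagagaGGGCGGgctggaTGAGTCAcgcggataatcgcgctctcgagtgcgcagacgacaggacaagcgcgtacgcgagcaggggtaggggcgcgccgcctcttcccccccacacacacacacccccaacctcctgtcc
Klf7 promoter, chr1:64121618-64121818, minus strand: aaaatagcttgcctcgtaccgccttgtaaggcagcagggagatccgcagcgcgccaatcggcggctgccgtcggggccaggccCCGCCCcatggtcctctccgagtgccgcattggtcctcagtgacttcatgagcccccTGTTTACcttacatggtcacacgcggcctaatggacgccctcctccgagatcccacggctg
The Klf3 window held 4 GC boxes (GGGCGG) and 29 CG pairs and was 84.1% G and C. The Klf13 window, centred −709 bp from a start inside the gene, held 5 CG pairs and a RUNX word but no GC box. An AP-1 word (TGAGTCA) stood beside the GC box of Klf4, and a FOX word (TGTTTAC) followed the GC box of Klf7 (CCGCCC).

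Most of the family's loci held more accessible regions than most genes did. The number of regions was 15 at Klf13, 11 at Klf6, 7 at Klf3, 5 at Klf4, 5 at Klf10, 4 at Klf7 and 4 at Klf12. The median was 5 regions over the 7 loci against 1 over all genes, of which 36.8% had no region. The 9 Treg and T cell markers also had a median of 5 regions (1 to 16). Fewer regions than at Klf13 were found at 99.6% of genes, fewer than at Klf6 at 98.9%, and fewer than at Klf7 and Klf12 at 87.9%. As the counts rest on reads of unknown depth, neighbouring loci in this order, such as Klf3 with Klf4 and Klf10, cannot be set apart.

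The space around the genes differed. Klf6 has no other protein-coding gene for 1252.3 kb to its left (Akr1e1) and 677.8 kb to its right (Pitrm1). A density was therefore taken over the sequence nearer to a start of the gene than to any other protein-coding start, within 100 kb, and it counts only the regions in that sequence. These were 14 of the 15 regions of Klf13, 2 of the 4 of Klf12 and all regions of the other 5 genes. Per 100 kb, Klf13 held 11.86 such regions over 118.1 kb, the shortest stretch of the 7, and Klf12 held 0.60 over 334.9 kb, the longest. Between them were Klf6 with 5.50, Klf3 with 3.97, Klf10 with 3.53, Klf4 with 2.61 and Klf7 with 1.99, and the median of all genes was 0.999. The density of Klf13 was above that of 95% of genes, and that of Klf6 above 82.2%. For Klf12 the density leaves out both regions deep in the gene body, which include its highest.

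**Figure D1:**
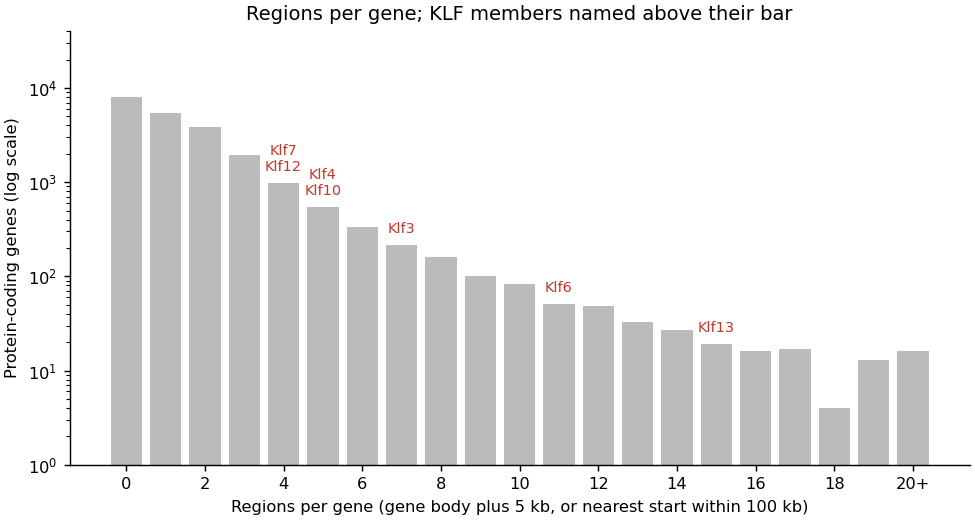
Number of protein-coding genes (vertical, log scale) by their number of accessible regions (horizontal, genes with 20 or more in the last bar), in the IDR-thresholded list, with the 7 genes named above the bar that holds them. Klf13 stands at 15 regions and Klf6 at 11, where few genes are found, and Klf7 and Klf12 stand at 4.

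A promoter region, one that overlapped the 1000 bp on either side of a protein-coding transcript start, was found at 6 of the 7 members (85.7%), and at 49.7% of all genes. Klf12 was the exception. The promoters of the 7 genes are rich in CG pairs, taken at the start with the highest ratio of observed to expected CG pairs. At the 5′ end itself the ratio was lower at Klf12 (0.63) and Klf10 (0.72). The highest ratios ran from 0.71 at Klf12 to 0.96 at Klf4, which put the genes in deciles 7 to 10 of all genes. In those deciles 76.5% to 86.3% of genes had a promoter region, so the count of 6 of 7 was close to that of other genes with such promoters. The fold enrichment of the highest promoter region was 17.47 at Klf7, 13.38 at Klf13, 11.89 at Klf6, 11.06 at Klf4, 9.07 at Klf10 and 8.73 at Klf3. Across all regions with the summit in a promoter the median was 15.4, with an interquartile range of 11 to 19.8, and only the Klf7 promoter was above it. Taken as the highest promoter region per gene, the median over all genes was 16.4, and again only Klf7 was above it. In 5 of the 6 members with a promoter region, all but Klf7, the highest region of the locus lay outside the promoter. The same was seen in 48.9% of the 7160 genes with a promoter region and at least 2 regions.

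**Figure D2:**
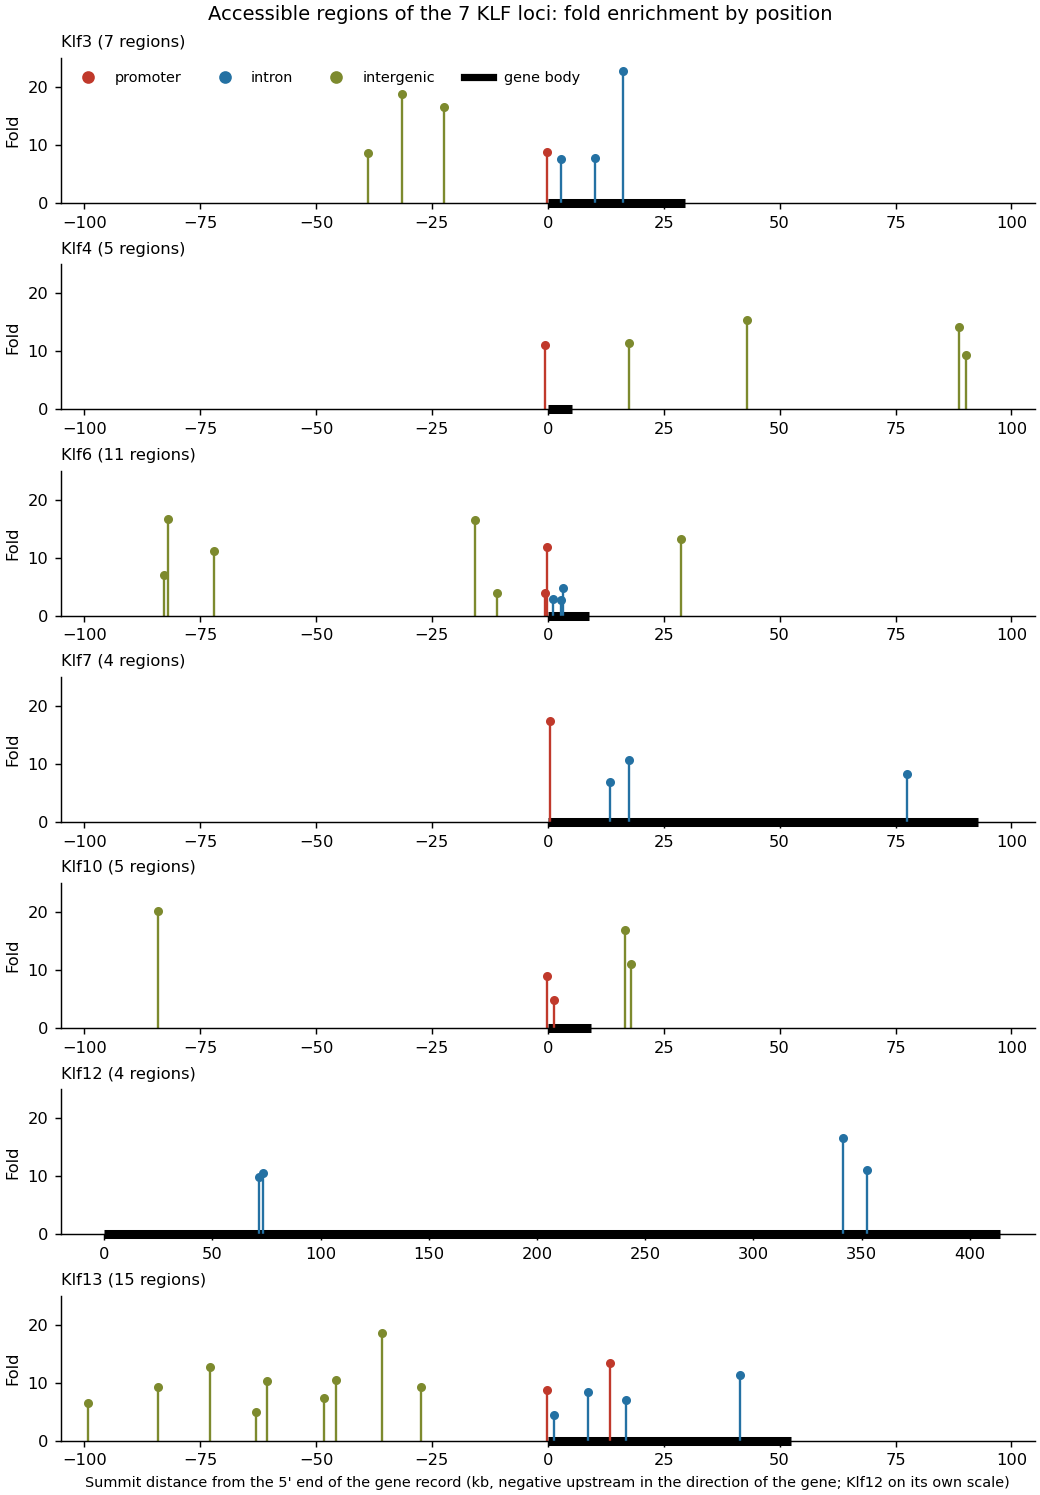
Fold enrichment (vertical) of each region of the 7 loci by the distance of its summit from the 5′ end of the gene record (horizontal, kb, negative upstream), coloured by class, with the gene body as a black bar. Klf12 is drawn on its own, longer scale. The regions of Klf13 and Klf6 reach far upstream, those of Klf4 beyond the promoter lie downstream, and those of Klf12 lie in the gene body.

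Among the repressors that bind CtBP, the locus of Klf3 (chromosome 5, 64803388 to 64832901, plus strand) held 7 regions of fold 7.58 to 22.7. The greatest value of all 51 regions, a fold of 22.7 with a −log10 p of 224.2, belonged to the Klf3 intron at 64819424 to 64819797, which is 374 bp wide and is shown above with its RUNX, NFAT and ETS words. The promoter region at 64802746 to 64803650 had a fold of 8.73 and a −log10 p of 111.8. The intron site thus stood above the promoter on both scales. Upstream, 3 regions at −22473, −31545 and −38727 bp from the start had folds of 16.56, 18.89 and 8.68. Their summits lay inside Gm20033, a noncoding transcript whose annotation also reaches the promoter of Klf3. The summit of the Klf3 promoter region was within 1 kb of the starts of Gm20033 and of C230096K16Rik, another record that is not protein-coding. Which of these genes the upstream sites and the promoter region serve was not tested. Of the 4 annotated starts of Klf3, only the first had a region of the main list within 1000 bp.

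Klf12, a repressor close to Klf3 in function, was the gene of the set without a promoter region (chromosome 14, 99870632 to 100284679, minus strand). All 4 of its regions lay in introns and had 1 summit each. Their fold was 16.56 for the region at 99943089 to 99943774, 11.12 for the one at 99931970, 10.67 for the one at 100211020 and 9.91 for the one at 100213082. The first 2 were 206383 and 217680 bp from the nearest start of Klf12 and were counted because they are in the gene body. The last had its summit in 4930517O19Rik, an antisense transcript, within 1 kb of its start. In the pseudoreplicated list, which was not thresholded on IDR, the Klf12 promoter did hold a region at 100284330 to 100284752, with a fold of 5.60 and a −log10 p of 18.6, and another of fold 3.44. The Klf12 promoter thus held low peaks that did not pass the IDR threshold.

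Of the members that bind Sin3, Klf10 (chromosome 15, 38291463 to 38300706, minus strand) had 5 regions. The highest, with a fold of 20.29 and a −log10 p of 228.6, lay upstream of the gene, −84174 bp from its start, at 38384302 to 38385330. It lay within 1 kb of the start of the lincRNA Gm26863, and it is the window above that held both a GC box and an AP-1 word. Downstream of the gene a pair of regions at 38283723 and 38282393 had folds of 16.95 and 10.99, and both held ETS and RUNX words. The promoter region at 38300572 to 38301538 had a fold of 9.07 but the greatest −log10 p of the locus, 266.2. A second region, at 38298888 to 38299550 within 1000 bp of 3 starts of shorter transcripts, had a fold of 4.80.

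Klf13 (chromosome 7, 63886351 to 63938915, minus strand) was the densest of the loci, with 15 regions and 31 summits. Of these regions, 9 formed a row 20 to 100 kb upstream, with folds from 4.89 to 18.51. The highest, at 63974198 to 63974961 and −35685 bp from the start, had a −log10 p of 154.3, and the next, at 64011389 to 64012491, had a fold of 12.73 and a −log10 p of 203.4. The farthest, at −99224 bp, had a fold of 6.58 and lay just inside the limit of 100 kb. Several of these sites have their summits in noncoding genes of unknown function (Gm45052, Gm32633 and Gm45054). The next protein-coding gene on that side, Trpm1, is 214.9 kb away. All 3 annotated starts of Klf13 had a region within 1000 bp. The region at the CG-rich 5′ start, 63938499 to 63940012, was 1514 bp wide with 5 summits and a −log10 p of 358.5, but its fold was 8.73. The start inside the gene at 63924870 had a ratio of observed to expected CG pairs of 0.18. Near it lay a region of fold 13.38 and −log10 p 294.1, at 63925331 to 63925973. That region did not reach the start, and its summit was at −709 bp. Its sparse CG pairs and RUNX word can be read in the window above. The region counted for the remaining start, 63936301, lay at 63937224 to 63937834, with a fold of 4.35 and a −log10 p of 98.4. Its summit was 1242 bp downstream of the 5′ start. One region in the body of Klf13, at 63896802 to 63897517 and of fold 11.35, is nearer to the start of E030018B13Rik.

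Klf4, known for its part in pluripotency and for holding T cells in quiescence, had an accessible promoter and 4 regions downstream of the gene (chromosome 4, 55527143 to 55532466, minus strand). The promoter region at 55532388 to 55533165 overlapped the windows of all 3 annotated starts and had a fold of 11.06 and a −log10 p of 155.9. The downstream regions had folds of 11.43, 15.35, 14.20 and 9.40 at 16911, 42298, 88093 and 89483 bp from a start of Klf4. None of the downstream sites had its summit in a noncoding gene. The greatest, at 55488632 to 55489817, had 5 summits and held a RUNX and a TCF/LEF word, and the one at 55443358 to 55443989 held RUNX, AP-1 and STAT words.

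Klf6, an early-response gene in many cell types (chromosome 13, 5861482 to 5870394, plus strand), combined tall far-upstream sites with a cluster of low regions over the gene. The highest fold, 16.72, was at 5779079 to 5779769, −81889 bp from the start, and nearly the same value, 16.49, was at 5844772 to 5846192, −15650 bp from the start. The nearer site was 1421 bp wide with 5 summits and a −log10 p of 485.3, against 217.3 at the farther one, and it held an AP-1 word. The farthest region, −82847 bp from the start, had a fold of 6.99, and the only one downstream of the gene, 28727 bp from the start in the lincRNA Gm47507, had a fold of 13.18. Klf6 was thus accessible on both sides, with the taller sites upstream. Around the start, 5 separate regions lay within 4223 bp. The promoter region at 5861060 to 5861659 had a fold of 11.89, and the other 4 had folds of 3.83, 2.85, 2.65 and 4.81. Of these 4, the last 3 are in introns and include the lowest fold of the 51 regions. Some regions of the locus lay close together, and merging within 200 bp left 8 of its 11 regions.

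Klf7, a widely expressed factor known for its part in the growth of neurons (chromosome 1, 64029447 to 64122282, minus strand), was the opposite of Klf3. Its promoter region at 64121487 to 64122648 had 4 summits, a fold of 17.47 and a −log10 p of 666.1, the greatest −log10 p of the 51 regions. It was within 1000 bp of all 3 annotated starts. The other 3 regions, all intronic, were lower, with folds of 10.59, 6.84 and 8.28 at 16662, 12659 and 76697 bp from the nearest start. By fold the promoter led the locus at Klf7 alone of the 6 members with a promoter region, while by −log10 p it also led at Klf6, Klf10 and Klf13.

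Taken over all annotated starts, 15 of the 21 starts of the 7 genes had a region within 1000 bp. The share over the starts of all genes was not taken, and the same region could count for several starts. The count is thus a description only. The 6 starts without a region were 3 starts of Klf3 inside the gene and the 3 starts of Klf12. In all 9 regions of the loci with the summit in a promoter, the summit was upstream of the nearest start, as it was in 71.5% of the promoter summits of all genes. That start was not always the 5′ end of the gene. The Klf7 summit, the lower Klf10 summit and the Klf13 summit of fold 13.38 were in introns, 564, 1428 and 13336 bp downstream of the 5′ end.

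By position, the 51 regions were mostly distal. Their summits were in a promoter for 9 (17.6%, against 36.7% of all regions), in an intron of a protein-coding gene for 17 (33.3%, against 31.3%), between such genes for 25 (49.0%, against 29.6%) and in an exon for 0 (against 2.36%). A start of the same gene was over 10 kb away for 33 regions and over 50 kb away for 16. Of the 51, 31 lay upstream and 20 downstream of the nearest start of their gene. Distance and side were not counted over all regions, so they describe these loci only. Several summits were called in 27 of the 51 regions (52.9%), against 55.9% of all regions. The median width was 632 bp for the 51 regions and 659 bp for all.

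Set against all regions, the regions were low in fold but not in −log10 p. Their median fold was 10.3 against 13.1 over all regions, and 14 of 51 (27.5%) were above the median of all regions. Their median −log10 p was 90.2 against 92.5, and 25 of 51 (49.0%) were above that median. The gap was widest at promoters. The 9 promoter summits had a median fold of 9.07 against 15.4, 5 of them were below the lower quartile of the class, and yet their median −log10 p was 266 against 177 for all promoter regions. In introns the median fold was 8.28 against 11.4 and between genes 11.2 against 12.6, with medians of −log10 p of 78.8 against 67.6 and 89.3 against 70.7.

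**Figure D3:**
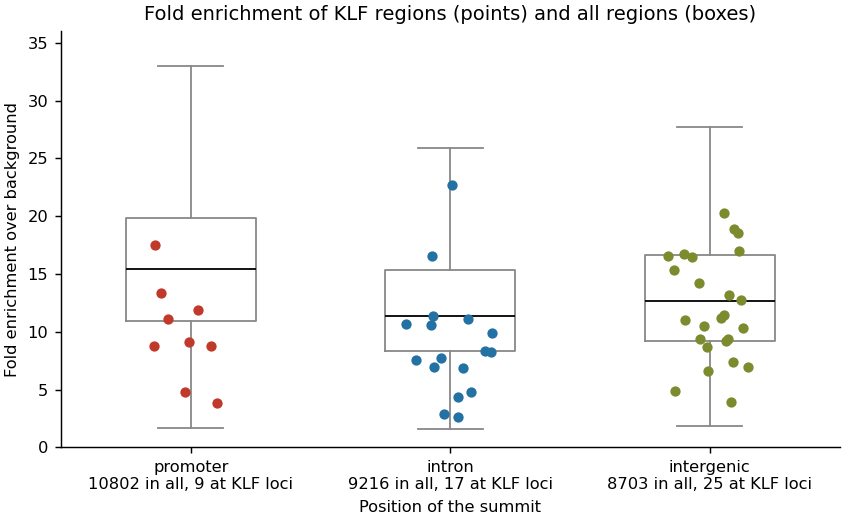
Fold enrichment of the regions of the 7 loci (points, 1 per region, spread sideways for clarity) by the position of the summit. Boxes show the median and quartiles of all regions of the class, and whiskers reach the farthest region within 1.5 times the interquartile range. Of the 9 promoter points only that of Klf7 lies above the median of the class, 15.4.

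Promoter regions of Klf6, Klf7, Klf10 and Klf13 had a high −log10 p for their fold. The Klf6 promoter region had a fold of 11.89 and a −log10 p of 637.4, and of the 12451 regions with a fold no greater, 3 had a higher −log10 p. For the Klf13 promoter region, with a fold of 8.73 and a −log10 p of 358.5, the count was 2 of 6302, and for that of Klf10, with a fold of 9.07 and 266.2, it was 12 of 6892. At the Klf7 promoter region, with a fold of 17.47 and 666.1, it was 15 of 22016. The low intronic regions of Klf6 shared this: at a fold of 4.81 and a −log10 p of 139.2, 1 of 957 regions with a fold no greater had a higher −log10 p. The Klf3 promoter, with the same fold as that of Klf13, had a −log10 p of 111.8 and was exceeded by 492 of 6302 regions. Hence promoters with like fold differed in −log10 p. The −log10 p of a region is the highest among its peaks. With several summits, as at Klf7, Klf10 and Klf13, it may come from another peak than the fold. The background that the authors' caller used for the fold is not stated, and its part in this pattern was not tested.

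**Figure D4:**
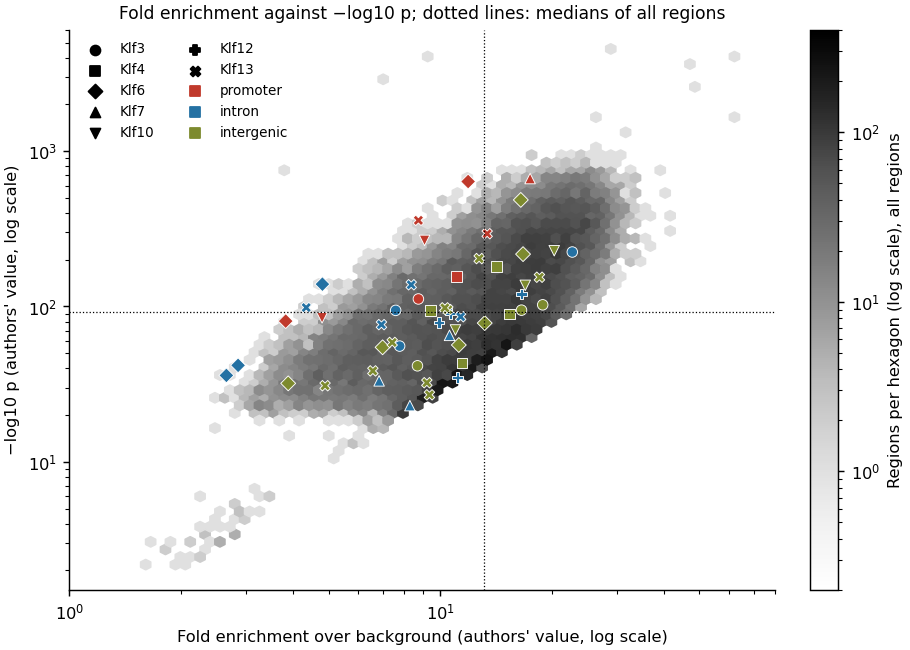
Fold enrichment (horizontal, log scale) against −log10 p (vertical, log scale) of the 51 regions, by gene and class, over the density of all 29415 regions in grey. The promoter regions of Klf6, Klf13, Klf10 and Klf7 and the low intronic regions of Klf6 lie along the upper left edge of the grey cloud, at a high −log10 p for their fold.

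All 51 regions were found in the ranked list, where the authors give a −log10 p in each of the read sets ranked against each other. These values were within 2-fold of each other in 51 of 51 regions (98.7% of all regions) and within 1.5-fold in 44 (87.1% of all regions). At the Klf7 promoter they were 286.6 and 370.7, at the Klf6 promoter 295.1 and 345.2, and at the Klf3 intron 134.6 and 111.1. The main list was itself thresholded on the agreement of the sets, so like values are part of how these regions were chosen. An IDR of 0.01 or below was given to 39 of the 51 (76.5%), as to 79.4% of all regions. Whether the sets were the libraries is not known, so these values are no measure of the spread between samples.

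In the pseudoreplicated list the 7 loci held 90 regions, the 51 above and 39 others. The whole list was longer as well, with 52972 regions against 29415. The 39 others were low, with a median fold of 4.60 (2.32 to 8.34) and a median −log10 p of 14.3. They were spread unevenly: Klf3 gained 11 of them, Klf6 7, Klf13 7, Klf12 6, Klf7 4, Klf4 3 and Klf10 1. At Klf3 2 of them, the higher with a fold of 4.46, were within 1000 bp of the internal starts at 64812339 and 64812384, so low peaks were listed there too.

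Consensus words were sought on both strands within 100 bp of the summit, and a match is a description of the letters only. Outside promoters the loci had 42 summits, set against 18613 such summits in all. The words the KLFs themselves bind were matched at 8 of the 42 for the GC box GGGCGG (19%, 95% exact binomial interval 8.60 to 34.1%, against 11.2% of all) and at 5 for the CACCC box GGGTGNGG (11.9%, 3.98 to 25.6%, against 9.74%). The GC box matches were at Klf3, Klf4, Klf10 and Klf13, and the CACCC box matches at Klf3, Klf4, Klf7, Klf12 and Klf13. No summit outside the promoters of Klf6 held either word. The intervals cover counting error only.

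For words of factors that act in T cells, the intervals also held the shares of all such summits. The ETS word GGAAGT was matched at 16 summits (38.1%, 23.6 to 54.4%, against 31.1%) and the RUNX word TGTGGT at 15 (35.7%, 21.6 to 52.0%, against 27.4%). RUNX matches were at Klf3, Klf4, Klf6, Klf10 and Klf13. The TCF/LEF word CTTTGA was matched at 9 (21.4%, against 17.4%), the E-box CAGCTG at 8 (19%, against 13.4%) and the AP-1 word TGANTCA at 6 (14.3%, against 13.4%). AP-1 words, bound by factors that follow T cell activation, were at Klf3, Klf4, Klf6 and Klf10. The NFAT word GGAAAA was matched at 5 (11.9%, against 14.6%) and the STAT word TTCNNNGAA at 4 (9.52%, against 7.17%).

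Rarer words were matched at 1 summit or at none. The FOX word TGTTTAC was at 1 summit (2.38%, against 3.72%), the NF-kB motif at 1, in a Klf6 region −71962 bp from the start (2.38%, against 3.70%), and the CTCF motif at 1, in a Klf3 intron (2.38%, against 5.71%). The IRF motif was at 0 of 42 (0 to 8.41%, against 6.68%), the CRE word TGACGTCA at 0 (against 0.962%) and the CArG box at 0 (against 1.15%). For each of the 15 motifs the interval held the share over all such summits, so 42 summits could not show a difference.

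At the 9 promoter summits the GC box was matched at 6 (66.7%, 29.9 to 92.5%), at Klf3, Klf4, Klf7, Klf10 and Klf13, against 59.5% of all promoter summits. Windows of 300 bases around RefSeq gene starts (GRCm38.p6) were matched for 6 members, Klf3, Klf4, Klf6, Klf7, Klf12 and Klf13. A GC box was in 5 of these, all but Klf12, and in 35.7% of all 32851 windows. The CACCC box was in 3, Klf3, Klf7 and Klf12, and in 16.6% of all. The Klf12 window held the start inside the gene at 100149764, where the ratio of observed to expected CG pairs was 0.34. The 5′ end of Klf12, at 100284679, was outside that window, so its words were not matched.

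**Figure D5:**
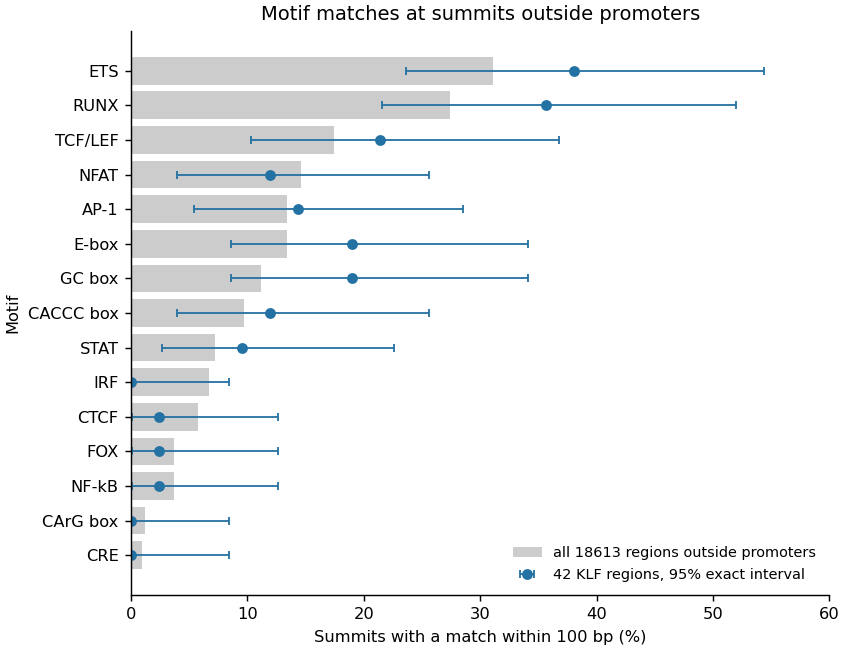
Percent of summits outside promoters with a match to each of 15 motifs within 100 bp, for the 42 summits of the 7 loci (points, with 95% exact binomial intervals) and for all 18613 such summits (grey bars). The intervals span the end of the grey bar for every motif.

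In the rest of the family, 7 of the 10 other Klf genes (70.0%) had a promoter region, against 49.7% of all genes, with a median of 2.5 regions per locus. Klf14, Klf15 and Klf17 had none at the promoter. Klf2, the member that controls T cell exit from lymphoid organs, had 7 regions, a promoter fold of 14.83, a highest fold of 21.16 and 12.05 regions per 100 kb. Its promoter fold was above that of every member described here but Klf7, and its density was close to that of Klf13. Among the Sp genes, 5 of 9 (55.6%) had a promoter region, which were Sp1 to Sp5, and the median was 2 regions.

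Of 12 genes that encode partners of KLFs, 11 (91.7%) had a promoter region, against 49.7% of all genes, with a median of 2 regions per locus against 1. All 12 were in deciles 7 to 10 of CG pairs, where 76.5% to 86.3% of genes had a promoter region, so the count was near that of such promoters. Ctbp2, which encodes one of the corepressors that Klf3 and Klf12 bind, was the exception with 0 regions, while Ctbp1 had a promoter region of fold 7.99. The Sin3 genes that serve Klf10 and Klf13 both had one, of fold 8.92 at Sin3a and 25.91 at Sin3b. Of 14 genes that KLFs are known to act on, 10 (71.4%) had a promoter region, against 49.7% of all genes, and their loci held a median of 4 regions against 1. Those without included Ccl5, the chemokine gene tied to Klf13, with 1 region of fold 7.83, Tgfb1 with 2 regions and Il10 with 7.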

How the data were processed

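ATAC-seq peaks came from 2 samples, technical replicates of 1 biological replicate, in 1 group. Per the text files deposited with them, the lists were derived from 1 filtered alignment on mm10. Aligner, peak caller, Tn5 shift, IDR threshold and read counts were not given in the sources used here. The authors' fold enrichment is a linear ratio over a background that is not stated. The authors' −log10 p, q and IDR values and the deposited score (540 or more in the thresholded list, an IDR of 0.05) were read by column order and values.

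Peaks of the thresholded list that overlapped or touched were merged, and the peak with the greatest fold gave the fold and summit. The −log10 p and the score of a region are the highest among its peaks. Genes were those of GENCODE M21 on GRCm38.p6 with a protein-coding transcript. Regions were classed by the summit as promoter (1000 bp), exon, intron or intergenic, using protein-coding genes only. Ratios of CG pairs were taken over 500 bp to each side of every protein-coding transcript start, and a gene was given its highest. Python 3.11.15, pandas 2.3.3 and scipy 1.17.1 were used, and the functions were tested on simulated data. All members are named, with each promoter region, the highest and the farthest region, and from the family, cofactor and target lists Klf2 and genes that differ from the majority of their list. One such gene of the target list is not reported here. Members and lists were chosen with earlier results of these data known. No test was made, since there was 1 biological replicate. Alternatives were the list, the threshold, merging, distance, promoter and motif windows.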

Additional observations from a re-analysis of the deposited data

How the results depend on the processing

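The number of regions at the 7 loci, 51 in the IDR-thresholded list, was 90 in the pseudoreplicated list, 14 among the upper 50% of regions by fold and 98 when summits were counted singly. The median per locus, 5, became 10, 2 and 13. The median fold, 10.3, became 16.6 in the upper 50% and 6.71 over single summits. Over the whole genome the main list held 29415 regions, the pseudoreplicated list 52972, and the single peaks numbered 58138. Promoter regions, at 6 members, remained at 2 in the upper 50% (Klf7 and Klf13, and 35.4% of all genes), and 7 members had one in the pseudoreplicated list (55.3% of all genes). An IDR of 0.01 or below left 39 regions, a limit of 50 kb left 40, and merging within 200 bp left 48. Under that merging Klf6 went from 11 to 8 regions, and the count of no other locus changed. Of 63 alternatives for single loci, 43 were within 1.5 times the value given. Of 45 motif shares over all summits, 1 left its interval (E-box, 15.7%, and 5.88% within 50 bp). No paired analysis was possible because there was 1 group, and no replicate could be left out because the lists pool the libraries. Depth is unknown, so the absence of a region sets no limit on accessibility.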
